A study of Rattus norvegicus with 19 samples.

Results

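The 10 female libraries of the series compared the paraventricular nucleus (PVN) of the hypothalamus between the Spontaneously Hypertensive Rat (SHR, 5 libraries) and the Wistar rat (5 libraries). They were chosen by the code DF in the library name and the female label, and they are 10 of the 19 libraries of the series, the rest being 9 male libraries. SHR is inbred and becomes hypertensive spontaneously, whereas Wistar is an outbred stock that served as the normotensive control. The rats of both strains came from 1 facility, carried a telemetry probe implanted under ketamine and xylazine, were given gentamicin and carprofen around that surgery, were recorded in dioestrus and were killed at the age of 14 weeks. Because each strain carries its own genome as well as its own blood pressure, strain and hypertension cannot be told apart in this comparison. Punches of 1 mm diameter were taken from both sides, and polyadenylated RNA of each animal was read with strand information from paired ends. The question was which transcripts differ between hypertensive and normotensive females in this nucleus.

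The PVN joins hormone release to autonomic control. Its magnocellular neurons send vasopressin and oxytocin to the posterior pituitary, and its parvocellular neurons drive the pituitary–adrenal stress axis through corticotrophin-releasing hormone. Other parvocellular neurons project to the brain stem and spinal cord and raise sympathetic outflow, which is why the nucleus is studied in hypertension. A punch also holds glia, vessels and parts of neighbouring nuclei. In such bulk tissue, fewer cells of a type and less RNA per cell cannot be told apart.

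The table gives genes by Ensembl identifier, and no table used here pairs these identifiers with symbols. The markers of PVN neurons and of other cell types were therefore not checked here, and the strain effect is described by its size, direction, level and repeat in other animals, with 4 genes as examples. The total count per library lay between 44943945 and 55264420 in SHR females (median 48721082) and between 46647451 and 49049307 in Wistar females (median 48111210). Of 30560 genes, 21808 had at least 1 count in a female library and 17409 had a mean above 5 normalized counts and were tested. The lowest mean kept was 5.004 and the highest not kept was 4.999. Normalized counts are raw counts scaled by library size and by TMM factors, which assume that most genes do not differ. The label of sex was checked with the Y-linked gene that the study's text gives as Ddx3y (ENSRNOG00000057231), which encodes an RNA helicase. It had between 0 and 11 normalized counts in the 10 female libraries and between 5650 and 6680 in the 9 male libraries, so no female library overlapped a male one.

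The strains separated along the first principal component of the log2 library-size-scaled counts (log2 CPM), which held 29.3% of the variance. SHR libraries lay between 17.45 and 31.63 on it and Wistar libraries between -60.89 and 4.94, so the groups did not overlap. Within Wistar the order on this component was that of the replicate numbers, with replicate 5 nearest to SHR and replicate 1 farthest from it. The Wistar libraries spanned more of the component than the gap between the strains, so it did not hold strain alone. Strain accounted for 25.8% of the variance over all genes tested (exact permutation test over 252 relabellings, p = 0.00794, the smallest this design allows). The second component held 18.6% of the variance and placed Wistar replicates 4 and 5 at 44.1 and 39.63, apart from the 8 other libraries, which lay between -25.79 and 2.87.

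**Figure D1:**
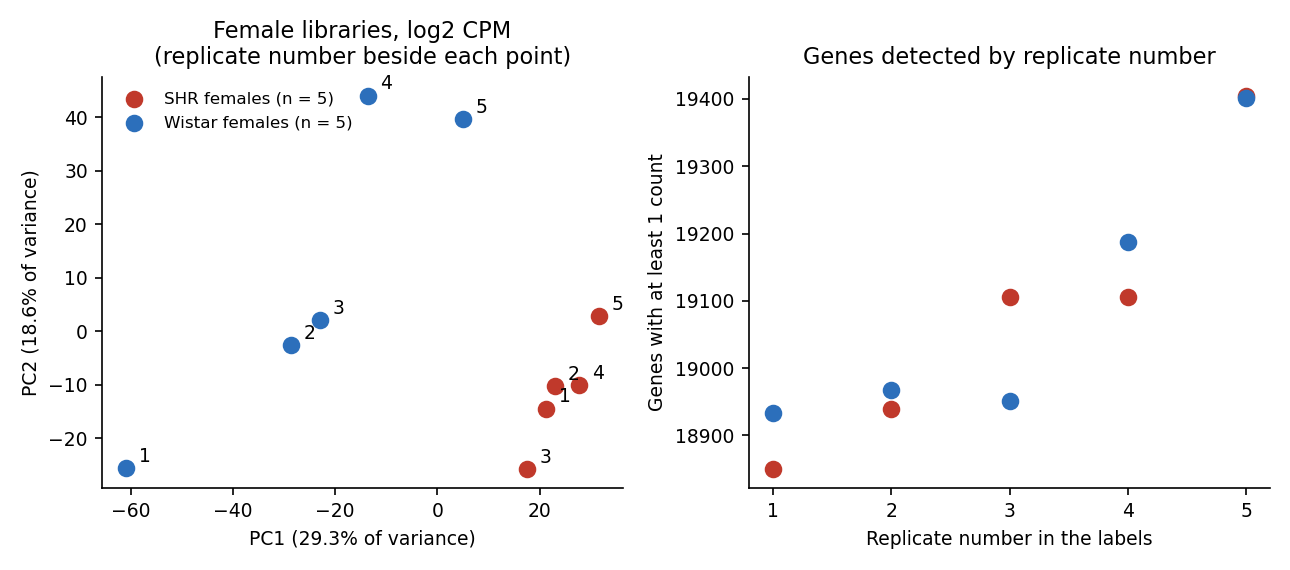
Left, the female libraries on the first 2 principal components of log2 CPM (axes in component units, with the share of variance), SHR in red and Wistar in blue, with the replicate number beside each point. Right, the number of genes with at least 1 count (vertical axis, which does not start at 0) against the replicate number in the labels. SHR lies to the right of 17 on PC1 and Wistar to the left of 5, and the Wistar libraries are the more widely scattered.

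In SHR females, 405 of the 17409 genes tested (2.33%) differed from Wistar females, 159 higher and 246 lower, at a Benjamini-Hochberg adjusted p under 0.05 in edgeR's quasi-likelihood test. Lower genes thus made up 60.7% of those called. Among the genes called the log2 fold change had a median size of 0.85, against 0.13 among all genes tested, where the median of the signed values was 0.00. Genes are called for a change that is large for their spread, so the choice itself raises the first median. A change of at least 2-fold was found for 63 of the higher and 112 of the lower genes, and a change of at least 4-fold for 17 and 54. At the other end, 120 of the 405 genes had a log2 fold change under 0.5 in size. The genes nearest to the threshold had adjusted p-values of 0.0499 inside it and 0.0502 outside it.

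For 922 genes (5.30% of those tested) every SHR library lay above or below every Wistar library, 382 above and 540 below. Of the 405 genes called, 378 were among them and 27 had overlapping groups. A further 372 genes were separated without overlap but were called neither in this fit nor in the one with the replicate number.

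The genes called were spread over the whole range of levels. With the genes split by mean level into 4 classes of equal size, in the lowest class, up to 129 normalized counts, 120 genes were called (2.76%) and their median log2 fold change was 1.91 in size. In the highest class, above 2626 normalized counts, 64 were called (1.47%) with a median size of 0.40. The share of lower genes was 75 of 120 in the lowest class and 47 of 64 in the highest. The median standard error of the log2 fold change fell from 0.37 in the lowest class to 0.07 in the highest, so smaller differences could be called among abundant transcripts.

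**Figure D2:**
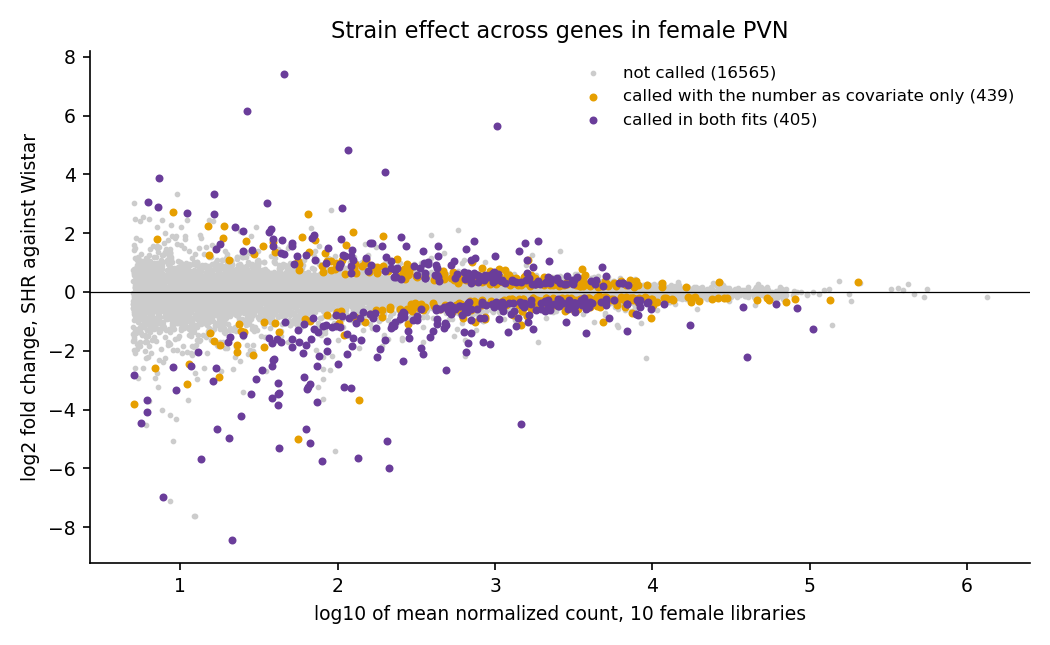
The log2 fold change of SHR against Wistar females without a covariate (vertical axis) for each of the 17409 genes, against the log10 of the mean normalized count over the 10 libraries (horizontal axis). Purple points are the 405 genes called in both fits, orange points the 439 called with the replicate number as covariate alone, and grey points the 16565 not called. The largest changes lie at low and middle levels, and more purple points lie below 0 than above it.

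As examples, the 2 genes in each direction with the smallest adjusted p and no overlap of the groups show the pattern by library. This choice fixed the separation and the small adjusted p in advance. ENSRNOG00000031439 had few counts in Wistar females and many in SHR females. It had 2110, 1960, 1800, 2290 and 1990 normalized counts in SHR replicates 1 to 5 and 39.5, 51.3, 45.4, 33.3 and 31.1 in Wistar replicates 1 to 5. Every SHR library was thus far above every Wistar library. Its mean was 2030 ± 180 (SD, n = 5) in SHR and 40.1 ± 8.38 (SD, n = 5) in Wistar, a log2 fold change of 5.66 (SE 0.14, Benjamini-Hochberg adjusted p = 3.32e-10, edgeR's quasi-likelihood test).

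ENSRNOG00000004670 was present in both strains and higher in SHR. SHR replicates 1 to 5 had 2310, 2140, 1960, 2040 and 1900 normalized counts. Wistar replicates 1 to 5 had 817, 805, 763, 813 and 747. The SHR libraries were all above the Wistar libraries, with 2070 ± 161 (SD, n = 5) against 789 ± 31.9 (SD, n = 5), a 2.62-fold difference of means. Its log2 fold change was 1.39 (SE 0.07, adjusted p = 5.59e-07 by the same test).

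ENSRNOG00000055608 went the other way, with high counts in Wistar and low counts in SHR. Whether it shares reads with the first gene was not tested. It had 132, 133, 111, 143 and 106 normalized counts in SHR replicates 1 to 5. The Wistar replicates 1 to 5 had 3170, 2990, 2830, 2500 and 2550. The Wistar mean of 2810 ± 287 (SD, n = 5) was 22.5-fold the SHR mean of 125 ± 15.7 (SD, n = 5), and the log2 fold change was -4.49 (SE 0.11, adjusted p = 3.32e-10, the same test).

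ENSRNOG00000026646 was lower in SHR by a smaller step. It had 441, 408, 464, 419 and 391 normalized counts in SHR replicates 1 to 5, and 1440, 1460, 1710, 1310 and 1280 in Wistar replicates 1 to 5. The highest SHR library, at 464, was far below the lowest Wistar library, at 1280. The mean was 425 ± 28.7 (SD, n = 5) in SHR and 1440 ± 173 (SD, n = 5) in Wistar, with a log2 fold change of -1.76 (SE 0.09, adjusted p = 9.91e-07, the same test).

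The same 4 genes were looked up in the 9 male libraries, which were not used to choose them and were normalized among themselves. ENSRNOG00000004670 had a male log2 fold change of 1.44 (SE 0.08, adjusted p = 7.41e-07) and ENSRNOG00000026646 one of -1.65 (SE 0.08, adjusted p = 5.67e-07), both by edgeR's quasi-likelihood test. These are close to the female values of 1.39 and -1.76. ENSRNOG00000031439 had 2210 to 2900 normalized counts in the 5 SHR males and 31.6, 1300, 66.7 and 68.1 in Wistar male replicates 2 to 5. Wistar male replicate 3 was therefore far above the other Wistar males and still below every SHR male. For ENSRNOG00000055608 the same Wistar male had 1160 normalized counts, between the 214 to 258 of SHR males and the 2510 to 2710 of the other Wistar males. The male log2 fold changes were 2.83 (SE 0.80, adjusted p = 0.038) and -3.23 (SE 0.21, adjusted p = 3.59e-06), by the same edgeR test. Without Wistar male replicate 3, an alternative chosen after seeing the data, they were 5.55 (SE 0.20, adjusted p = 2.43e-08) for ENSRNOG00000031439 and -3.45 (SE 0.08, adjusted p = 4.5e-10) for ENSRNOG00000055608. The male call of ENSRNOG00000031439 was lost in each of the 8 fits that left out another male library (edgeR adjusted p between 0.0521 and 0.0773).

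**Figure D3:**
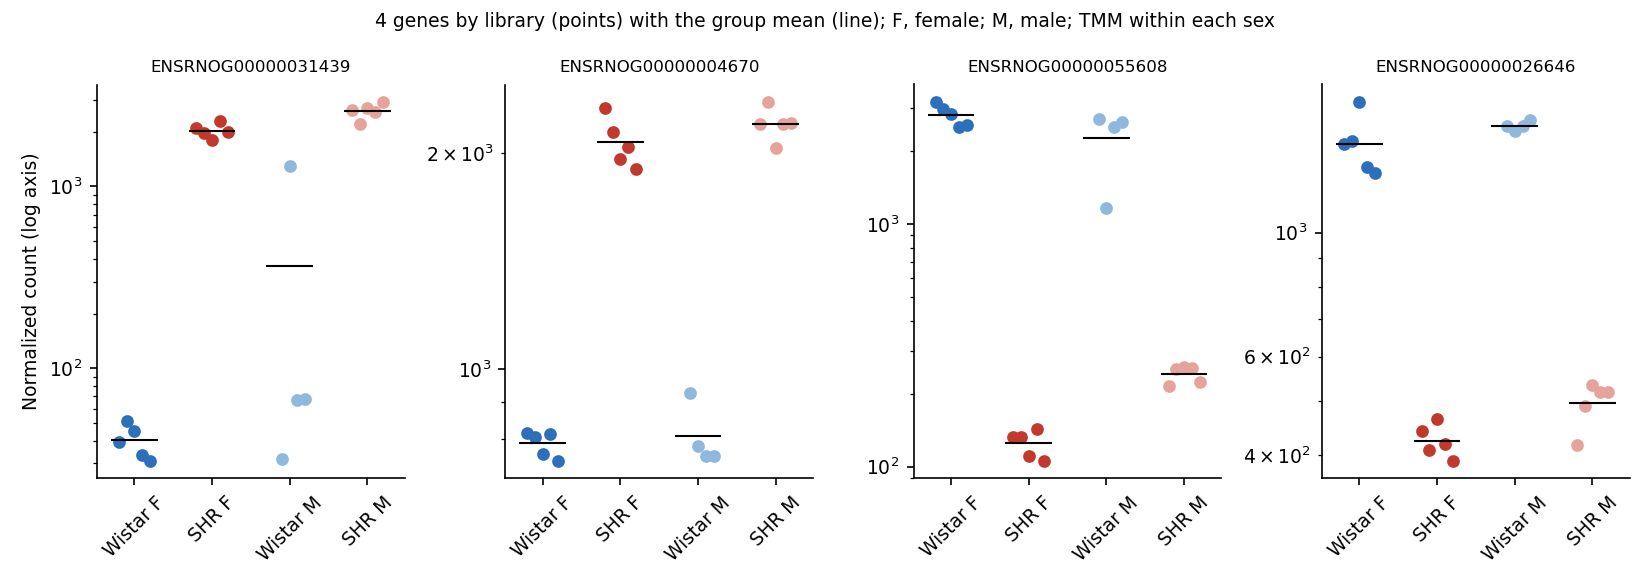
Normalized counts (vertical axes, log scale, 1 panel per gene) of the 4 example genes in each library, with the group mean as a line and points placed left to right by replicate number; counts were normalized within each sex. In females no SHR point overlaps a Wistar point, and 1 Wistar male lies between the groups for ENSRNOG00000031439 (1300) and ENSRNOG00000055608 (1160).

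A small number of genes came close to presence in one strain and absence in the other. Since most low counts were even (73.3% of values from 1 to 100), limits of 3 counts and of 6 counts were both used for a library with no more signal than a count of 0 allows. With the limit of 3 counts, 10 genes were at or under it in all 5 SHR libraries and above it in all 5 Wistar libraries, and 5 genes showed the reverse. With the limit of 6 counts the numbers were 8 and 6. In the strain that had them, the 10 and the 5 had medians of 10.3 and 13.8 normalized counts, and 3 and 2 of them had a mean of at least 20. At the limit of 6 counts the 8 genes low in SHR had a median of 37.7 in Wistar, with 6 at a mean of at least 20 and the highest at 155. The 6 genes low in Wistar had a median of 12.3 in SHR, with 2 at a mean of at least 20. Of the 10, 2 had the same pattern in all male libraries, as did 1 of the 5, and at the limit of 6 counts it was 3 of the 8 and 1 of the 6. None had the opposite pattern at either limit. Such a limit covers counting error only.

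The labels number the libraries 1 to 5 in each strain, and nothing read here says what the numbers stand for. The library names also end in an index that rises with the number within each strain. It places all Wistar females before all SHR females, and its meaning is not given either. With the number as a linear covariate, 844 genes (4.85%) were called, 352 higher and 492 lower in SHR, by the same edgeR test. They included all 405 genes called without it, none with the opposite sign, and 439 more, 193 higher and 246 lower. This gain rested largely on 1 library. Without Wistar female replicate 5 the calls were 797 without the covariate and 824 with it. With the number as a block instead of a linear term, 377 genes were called, 278 of them among the 405. Each strain holds each number once, so the covariate is balanced against strain and by design could move the fold changes little. Among genes called in either fit the median shift of the log2 fold change was under 0.01 and the largest 0.41. Over all genes of a class of level, the median standard error on the log2 scale went from 0.37 to 0.35 in the lowest class and from 0.070 to 0.058 in the highest. The biological coefficient of variation, the relative scatter of a transcript among animals of a strain once counting error is removed, went from 0.180 to 0.155.

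The added genes had smaller fold changes. Their median log2 fold change was 0.37 in size. Of all 844 genes, 294 had groups that overlapped in normalized counts. Only 27 of these were among the 405, and the rest were added genes. Of the 844 genes, 410 had a log2 fold change under 0.5 in size, 226 one of at least 1 and 84 one of at least 2. The gain was largest among abundant transcripts. In the highest of the 4 classes of level the calls went from 64 to 221 (5.08%), and in the lowest class from 120 to 182 (4.18%).

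The replicate number itself was related to the level of 1344 genes (7.72% of those tested), with 942 higher and 402 lower in libraries with higher numbers, by the same edgeR test. The median slope of these genes was 0.12 in size on the log2 scale per number. Among the 439 genes added by the covariate, 99 (22.6%) were called for this slope, and among the first 405 genes 7 (1.73%). Both shares follow in part from the choice of genes. A slope left in the scatter hinders a call without the covariate, and fitting the slope lowers the standard error. The slope did not differ between the strains at the adjusted threshold for any of the 17409 genes by edgeR's quasi-likelihood test, while 1433 had an unadjusted p under 0.05. The difference of slopes was not fitted with another tool.

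The slope was next fitted in each strain by itself. Fitted within Wistar alone, 1032 genes were called, and within SHR alone 0 genes were called by edgeR's quasi-likelihood test, with 4513 and 1501 at an unadjusted p under 0.05. The 5 libraries of each strain are separate animals, so the signs can be compared. Of the 1488 genes with an unadjusted p under 0.05 in SHR that were tested in both, 1333 (89.6%) had the same sign in Wistar, against 67.2% of all genes. Without Wistar female replicate 5 the number called for the slope over both strains dropped to 7, and without Wistar female replicate 1 to 147. In males, which share no library with the females, 0 of 17463 genes were called for the slope by edgeR and 1759 had an unadjusted p under 0.05. Of the 1342 genes called in females and tested in males, 1266 (94.3%) nevertheless had the same sign of slope, against 67.9% of all genes. Genes chosen for a slope move together over the same few libraries, so they are not separate observations. Neither this share nor the 89.6% was tested.

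Measures of the whole library moved with the number too. Genes with at least 1 count numbered 18850 in SHR replicate 1 and 19405 in SHR replicate 5, and 18933 and 19402 in the Wistar libraries of the same numbers. This measure was related to the number over the 10 libraries (Pearson's r = 0.926, exact permutation p = 0.000417 with the numbers shuffled within strain; Spearman's rho = 0.960, exact permutation p = 0.000556). The share of counts in the 50 highest genes was lower at higher numbers (r = -0.794, exact permutation p = 0.00278; rho = -0.852, exact permutation p = 0.00472), going from 17.3% to 15.8% in SHR and from 20.2% to 14.2% in Wistar between numbers 1 and 5. The first component of the data with group means removed had r = 0.784 (exact permutation p = 0.00528; rho = 0.763, exact permutation p = 0.0219). Total counts had r = 0.550 (exact permutation p = 0.0862; rho = 0.443, exact permutation p = 0.218). After Benjamini-Hochberg adjustment over these 4 relations the exact permutation p-values of r were 0.00167, 0.00556, 0.00704 and 0.0862. Leaving out the 2 libraries farthest from the median number, in every choice among the tied ones, kept r between 0.879 and 0.931 for the number of genes, between -0.874 and -0.651 for the share, between 0.623 and 0.885 for the component and between 0.371 and 0.756 for the totals. The part of these measures in the gene slopes was not tested.

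A pair of transcripts that the study's text lists as X-linked pseudogenes, ENSRNOG00000037911 and ENSRNOG00000065796, were called for the number and not for the strain. ENSRNOG00000037911 had 22700, 25600, 36600, 37300 and 41100 normalized counts in SHR replicates 1 to 5 and 21000, 24100, 27700, 43600 and 47900 in Wistar replicates 1 to 5. The strains overlapped almost completely, with a log2 fold change of -0.01 (SE 0.24, adjusted p = 0.991 by edgeR's quasi-likelihood test). Its slope was 0.28 on the log2 scale per number (adjusted p = 0.00557, the same test). ENSRNOG00000065796 had 978, 906, 2010, 2200 and 2250 in SHR and 679, 738, 1310, 2450 and 2610 in Wistar, by replicate number. Its log2 fold change between strains was 0.10 (SE 0.40, adjusted p = 0.924) and its slope 0.47 per number on the log2 scale (adjusted p = 0.00851), both by edgeR. With the covariate their standard errors dropped to 0.09 and 0.17, and neither was called for strain. Both transcripts were at a far lower level in males, with means of 25.0 (SHR) and 25.1 (Wistar) normalized counts for ENSRNOG00000037911 and of 62.6 and 59.3 for ENSRNOG00000065796, against 32700 and 32800, and 1670 and 1560, in females. Reads from near-identical copies could be split between such genes, so their levels are uncertain.

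The SHR females were more alike than the Wistar females. The biological coefficient of variation was 0.139 among SHR and 0.217 among Wistar libraries. Without 1 library at a time it lay between 0.106 and 0.154 in SHR and between 0.187 and 0.235 in Wistar. These fits share most of their animals, so the ranges do not measure the uncertainty of the spread. With the number as a linear term the coefficient was 0.137 in SHR and 0.161 in Wistar, so the strains lay closer. The standard deviation of log2 CPM was lower in SHR for 67.0% of the genes tested. Wistar replicate 1 stood farthest from its group, with 543 of 14406 genes of mean at least 50 more than 2-fold from the group's level, and SHR replicate 4 closest, with 10. These spreads are given without a test.

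The number of genes called changed when single animals were left out. Each such fit also holds 1 animal fewer, and the loss of power from that was not separated from the part of the particular animal. Without SHR replicates 1, 2, 4 or 5, the calls without the covariate were 199, 216, 176 and 251, and without Wistar replicate 5 they rose to 797, which included 390 of the 405 (96.3%). With the covariate, the calls were 329, 400 and 336 without SHR replicates 1, 2 and 4, and 526, 557 and 543 without Wistar replicates 1, 2 and 3. Without Wistar replicate 5 they were 824. None of the genes called with all 10 libraries changed sign in any of the 10 fits that left out 1 library, in either model. The choice of genes largely fixed this, since 378 of the 405 and 550 of the 844 had groups that did not overlap. The signs are therefore no separate check. A core of 163 genes, 62 higher and 101 lower in SHR, was called with all 10 libraries and in each of these 10 fits, and its median log2 fold change was 1.21 in size. With the covariate this core held 270 genes, 111 higher and 159 lower, and 162 genes were in both cores.

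**Figure D4:**
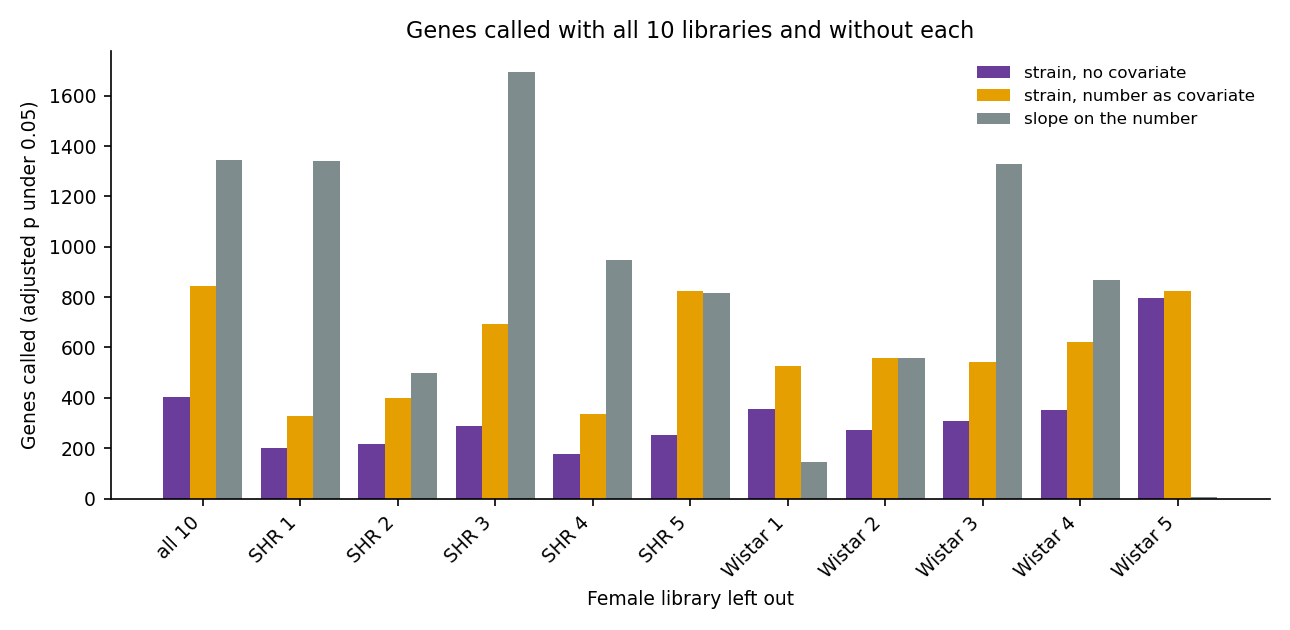
The number of genes called at an adjusted p under 0.05 (vertical axis, from 0) with all 10 female libraries and with each library left out (horizontal axis), for strain without a covariate (purple), for strain with the number as covariate (orange) and for the slope on the number (grey). Purple bars run from 176 without SHR replicate 4 to 797 without Wistar replicate 5, where the grey bar is 7.

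The 9 male libraries (5 SHR and 4 Wistar) are other animals, so the strain difference could be looked for again there. In males 2154 of 17463 genes were called (12.3%), 5.63% higher and 6.70% lower in SHR, by edgeR's quasi-likelihood test, with a coefficient of variation of 0.127. Of the 405 genes called in females without the covariate, 403 were tested in males and 263 (65.3%) were called there, each in the same direction as in females. Without 1 male library at a time, between 215 and 254 of the 405 were called in males in the same direction. The male calls as a whole dropped to 1408 without Wistar male replicate 3, to 1414 without SHR male replicate 1 and to 1192 without SHR male replicate 3. With all 9 male libraries, 91 of the 159 higher genes (57.2%) and 172 of the 244 lower genes tested (70.5%) were called in the same direction. The direction was the same for 97.0% of the 403 genes, called or not. For the genes called without Wistar female replicate 5 that share was 85.6%. The median log2 fold change of the higher genes was 0.82 in females and 0.47 in males, and that of the lower genes -0.87 and -0.66. Female values were used for the choice of genes and male values were not.

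For the genes added by the covariate the shares in males were lower. Of these 439, 112 (25.5%) were called in males, 110 in the same direction, and 77.0% had the same direction, called or not. Among the genes called in neither female fit, 10.8% were called in males and 56.8% had the same direction. The highest share was that of the core genes without the covariate, with 132 of 163 (81.0%) called in the same direction in males, and for the core with the covariate it was 181 of 270 (67.0%). These shares were not compared by a test. Seen from the males, 12.3% of their 2146 genes tested in females were called in females without the covariate and 17.5% with it.

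**Figure D5:**
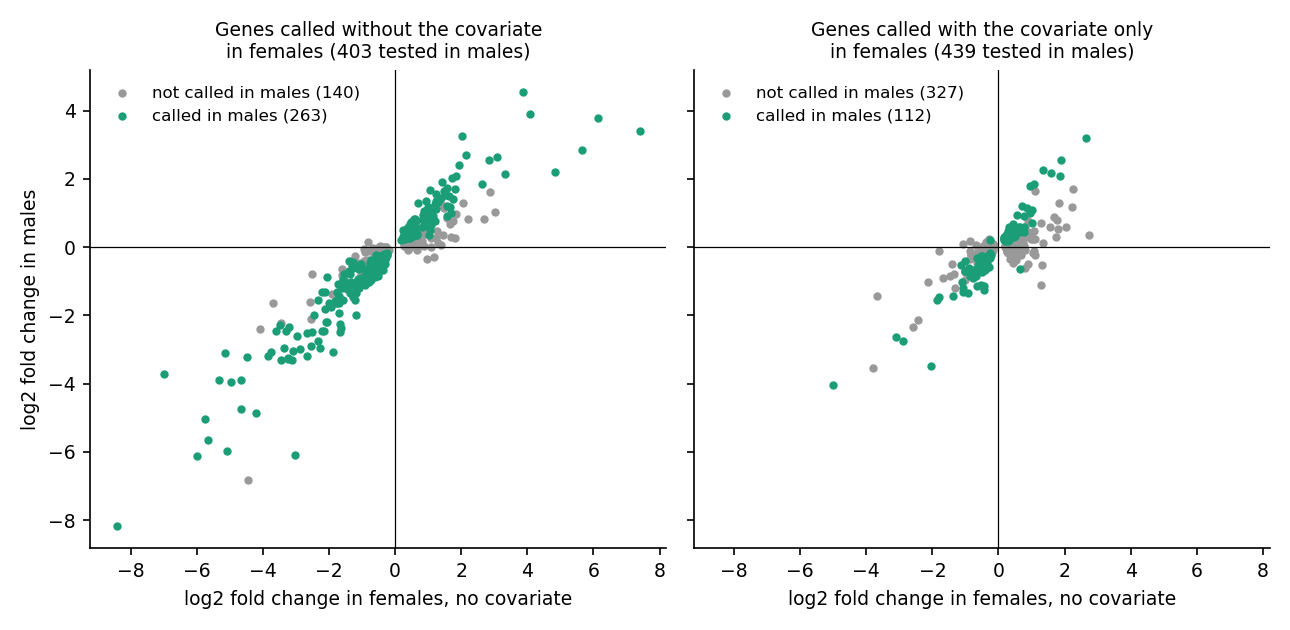
The log2 fold change of SHR against Wistar in males (vertical axes) against that in females without a covariate (horizontal axes), for genes called in females without the covariate (left, 403 genes) and with it only (right, 439 genes); green points were called in males. On the left nearly all points lie in the lower left and upper right, and on the right more lie near 0 in males.

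Whether the strain difference itself differed between the sexes was tested with a strain-by-sex term in a fit of all 19 libraries. By edgeR's quasi-likelihood test 0 of 17436 genes passed the adjusted threshold, with 2409 (13.8%) at an unadjusted p under 0.05 and 48 called by DESeq2. The smallest adjusted p was 0.160, that of ENSRNOG00000055608, whose interaction was -1.26 on the log2 scale (unadjusted p = 6.21e-05 by edgeR). This gene is one of the pair with a Wistar male between the groups. Without each other male library in turn, the edgeR adjusted p of its interaction was between 0.199 and 0.4. Without Wistar male replicate 3 its interaction was -1.04 (edgeR adjusted p = 0.00642), the 1 gene called in that fit. That library was singled out for its value in this gene, so the call is no separate support. The interaction of ENSRNOG00000031439 was 2.83 on the log2 scale (unadjusted p = 0.00796, adjusted p = 0.314, edgeR), and 0.11 without the same library (unadjusted p = 0.65). For ENSRNOG00000004670 and ENSRNOG00000026646 the interaction was -0.05 and -0.11 on the log2 scale.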

How the data were processed

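Per the labels, polyadenylated RNA of PVN punches was sequenced in 19 rats. The authors deposited raw counts per gene, made with featureCounts from reads that were trimmed (Trimmomatic, Phred 30) and aligned to Rn7 with STAR. The counting settings are not given in the sources used here. Both reads of a pair may have been counted, since 73.3% of counts from 1 to 100 were even.

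Strains were compared in the 10 female libraries with edgeR 4.0.16 in R 4.3.3 (quasi-likelihood test, TMM factors, Benjamini-Hochberg adjusted p under 0.05), for genes with a mean above 5 normalized counts, without and with the replicate number as a linear term. Males and the interaction were fitted likewise, with 9 and 19 libraries. Standard errors are the size of the log2 fold change over the square root of F. Libraries of a group differed beyond sampling noise (chi-square per degree of freedom at least 5.93). Relations with the number used Python 3.11.15.

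Alternatives were DESeq2 1.42.0, median-of-ratios factors, other filters, counts divided by 2, Bonferroni adjustment, all 4 groups in 1 fit, the number as a block, and each library left out. Those for the number slope and for males were added after seeing the data.

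The members, gene lists and rules were chosen with earlier results of these data known. The rule for named genes, the gene lists and the cell type markers needed symbols, which no table used here pairs with the identifiers. So the lists and markers were not used, and the 2 genes per direction with the smallest adjusted p whose groups did not overlap were named, with 3 identifiers printed in the study's text.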

Additional observations from a re-analysis of the deposited data

Results flagged for a closer look

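Groups of 4 and 5 libraries were checked for a library far from the rest, by the gap to its nearest neighbour as a share of the group's range, in 40 groups of the named genes and library measures. Chance alone flags about 1 in 20 groups, and 3 were flagged, all in Wistar males. For ENSRNOG00000031439 the share was 0.971 (Wistar male replicate 3, 1300 normalized counts). For ENSRNOG00000055608 it was 0.872 (the same library, 1160). For ENSRNOG00000004670 it was 0.859 (Wistar male replicate 2, 926 normalized counts against 759 to 783). No female group was flagged.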

How the results depend on the processing

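Genes called for strain in females numbered 405 without the covariate and 844 with it. The counts moved by more than 1.5 times with DESeq2 (1097, including all 405, and 1809, including 843), with Bonferroni adjustment (40 and 44) and with all 4 groups in 1 fit (1120 and 1580). Median-of-ratios factors, no filter, the filterByExpr filter and counts divided by 2 kept them within 1.5 times (378 to 409 and 774 to 868). With 1 library left out they ran from 176 to 797 and from 329 to 824. With the replicate number as a replicate block, 377 genes were called, 278 of them among the 405 and 357 among the 844. Without block or covariate the number is 405. The numbers do not pair the samples by the labels, and the correlation of deviations was over 0.1 in 1 of 5 pairs, while 6 of 10 libraries correlated best with their own number.

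For the interaction, 0 genes became 48 with DESeq2 and 39 with the replicate block, and 0 to 3 with 1 library left out. The number slope, whose alternatives were chosen after seeing the data, went from 1344 genes to 2574 with DESeq2, and from 7 to 1694 with 1 library left out. The coefficient of variation ran from 0.106 to 0.154 in SHR and from 0.187 to 0.235 in Wistar with 1 library left out, and the share of variance between strains from 24.9% to 30.4%, with 37.8% over the 500 most variable genes. The male calls, 2154 in all, ran from 1192 to 1893 with 1 male library left out. The 4 example genes, chosen for a small adjusted p, kept direction and call in females under each alternative. The share of called genes with the same direction in males ran over the alternatives from 85.6% (without Wistar female replicate 5) to 100% (Bonferroni adjustment) without the covariate, and from 79.4% (DESeq2) to 97.7% (Bonferroni adjustment) with it. The cause of these changes was not tested. With 5 animals a group and fold changes under 0.5 on the log2 scale among 410 of the 844 calls, depth and spread limit what weak or rare transcripts can show.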
